A study of Mus musculus with 6 samples.

Results

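The genes described here are 34 matrix metalloproteases, ADAM and ADAMTS proteases, plasminogen activators with their receptor and an inhibitor, and cysteine cathepsins, chosen by name. The array annotation named 32 of them among its 19505 genes, with 1 probe set each. Mmp15 and Serpine2 were not analysed here. Expression was measured in 393P, a mouse lung adenocarcinoma line, which some labels write as 9393P. The cells carried a stable transfection of either AC9 (3 arrays) or the empty vector (VECTOR, 3 arrays), and were grown in RPMI with 10% fetal bovine serum. Stable cells were selected with puromycin or G418. The sources used here do not give the drug of each group, the number of clones, or whether a group's 3 samples were separate cultures. Drug and selected population therefore cannot be told apart from AC9, and the p-values rest on a spread between samples that may be technical. Each value is an average over many cells, so fewer cells making an RNA and less RNA per cell cannot be told apart. The question the labels pose is what AC9 overexpression changes in these cells. They do not expand AC9, a name that the reference gene table gives as another one for Adcy9, which encodes an adenylyl cyclase.

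Matrix metalloproteases (MMPs) are zinc enzymes made as inactive precursors. They cut collagens, gelatin, laminin and other matrix proteins, and are held in check by the TIMP inhibitors. ADAM proteases sit in the membrane and release the outer parts of growth factors, receptors and adhesion proteins, while ADAMTS proteases are secreted and cut proteoglycans. The plasminogen activators Plau (urokinase) and Plat (tissue type) turn plasminogen into plasmin, which degrades fibrin and activates several MMPs, and Plaur is the cell surface receptor of urokinase. Cathepsins are proteases that work mainly in lysosomes and can also be secreted. In lung tumours these families are known for their part in invasion and in the release of growth factors.

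The promoters of the 8 MMP members printed here were of 2 kinds by sequence, shown first because the MMPs that were lower in AC9 come from both. Sequences are RefSeq promoter windows of the assembly GRCm38.p6, which run from 250 bases before to 50 after each annotated start and were found for 22 of the 34 members. The stretches printed run 5′ to 3′ on the gene's strand and end 20 bases after the start. Capitals mark the AP-1 motif TGAGTCA on either strand (reverse complement TGACTCA), the TATA motif TATAAA on the gene's strand, and the GC box GGGCGG on either strand (reverse complement CCGCCC). The first set holds the members of the MMP gene cluster on chromosome 9.
Mmp13 (chr9:7272284-7272533, plus strand): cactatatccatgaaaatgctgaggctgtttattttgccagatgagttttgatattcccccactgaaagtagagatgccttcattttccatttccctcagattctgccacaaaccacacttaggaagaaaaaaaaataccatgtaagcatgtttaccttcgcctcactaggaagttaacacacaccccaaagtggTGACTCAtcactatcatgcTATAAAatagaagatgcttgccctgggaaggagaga
Mmp12 (chr9:7347244-7347393, plus strand): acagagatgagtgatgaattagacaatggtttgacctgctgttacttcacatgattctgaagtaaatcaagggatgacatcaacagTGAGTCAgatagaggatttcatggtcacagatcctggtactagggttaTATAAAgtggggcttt
Mmp3 (chr9:7445692-7445841, plus strand): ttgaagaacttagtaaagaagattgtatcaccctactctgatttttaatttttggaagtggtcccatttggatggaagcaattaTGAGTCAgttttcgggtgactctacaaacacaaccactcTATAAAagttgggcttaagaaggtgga
Mmp10 (chr9:7502212-7502361, plus strand): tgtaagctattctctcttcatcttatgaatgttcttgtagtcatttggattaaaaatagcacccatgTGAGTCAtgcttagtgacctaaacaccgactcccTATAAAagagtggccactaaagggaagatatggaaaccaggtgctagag
Mmp7 (chr9:7691960-7692109, plus strand): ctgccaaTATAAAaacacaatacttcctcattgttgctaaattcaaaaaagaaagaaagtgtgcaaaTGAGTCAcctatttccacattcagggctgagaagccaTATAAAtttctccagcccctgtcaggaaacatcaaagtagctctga

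The 5 windows each held an AP-1 motif and a TATA motif and no GC box. Counted from the start, with negative positions before it, AP-1 matches began at -35 in Mmp13, -44 in Mmp12, -46 in Mmp3, and -63 in both Mmp10 and Mmp7. The TATA matches differed in place. They began at -16 in Mmp13, -7 in Mmp3, -29 in Mmp10, -123 and -26 in Mmp7, and 5, after the start, in Mmp12. Mmp12 and Mmp7 each have a second RefSeq window with neither motif, and the one with the AP-1 motif is printed. Over all 32851 promoter windows, 5.20% held the AP-1 motif, 8.32% the TATA motif and 35.7% the GC box. Among the members, 7 of 22 had a window with the AP-1 motif, the others being Plaur and Adam19. Counted by window, as for all promoters, it was in 7 of their 26. The cAMP response element TGACGTCA was in the windows of 0 of 22 members and in 1.79% of all windows. Plat, lower in AC9, and Adam12, higher, had no window, so their promoters were not searched for any motif. A match is only a run of letters, and the absence of one says nothing of a factor.

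The second set holds the other MMPs that were lower in AC9, and Plaur, which was higher.
Mmp14 (chr14:54431368-54431617, plus strand): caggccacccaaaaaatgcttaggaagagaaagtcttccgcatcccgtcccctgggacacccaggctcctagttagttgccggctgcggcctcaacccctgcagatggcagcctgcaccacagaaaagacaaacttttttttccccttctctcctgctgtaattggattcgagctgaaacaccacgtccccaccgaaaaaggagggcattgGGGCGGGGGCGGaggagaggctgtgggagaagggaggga
Mmp11 (chr10:75932483-75932732, minus strand): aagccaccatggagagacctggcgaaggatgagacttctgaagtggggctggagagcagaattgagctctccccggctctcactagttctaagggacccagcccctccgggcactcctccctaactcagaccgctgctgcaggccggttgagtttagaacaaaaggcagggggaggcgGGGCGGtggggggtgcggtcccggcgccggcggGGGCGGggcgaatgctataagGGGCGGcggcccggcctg
Mmp28 (chr11:83463021-83463270, minus strand): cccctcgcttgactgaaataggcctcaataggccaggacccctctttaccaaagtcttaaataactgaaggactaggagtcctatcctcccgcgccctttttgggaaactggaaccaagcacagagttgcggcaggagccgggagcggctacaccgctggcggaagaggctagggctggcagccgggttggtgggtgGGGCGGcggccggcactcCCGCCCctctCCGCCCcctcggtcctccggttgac
Plaur (chr7:24462253-24462502, plus strand): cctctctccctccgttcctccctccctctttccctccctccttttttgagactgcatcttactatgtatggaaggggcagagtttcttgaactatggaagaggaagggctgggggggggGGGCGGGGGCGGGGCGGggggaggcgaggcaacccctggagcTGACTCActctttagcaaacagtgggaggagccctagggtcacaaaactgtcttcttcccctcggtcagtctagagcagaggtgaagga

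The windows of Mmp14, Mmp11 and Mmp28 held 2, 4 and 3 GC boxes and neither an AP-1 nor a TATA motif. A GC box was in windows of 15 of the 22 members, so it does not mark these 3 alone. The fourth GC box of Mmp11 begins at position 44, beyond the printed stretch. Their GC content was 56%, 67.0% and 63.7%, against 43.7% in the window of Mmp13 and a median of 52.7% over all windows. Plaur had 3 GC boxes, which overlap or adjoin, and an AP-1 motif at -69. The ETS motif of the PEA3 kind, AGGAAG on either strand, was in windows of 12 of the 22 members. Counted by window, it was in 13 of their 26, beside 35.4% of all windows.

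**Figure D1:**
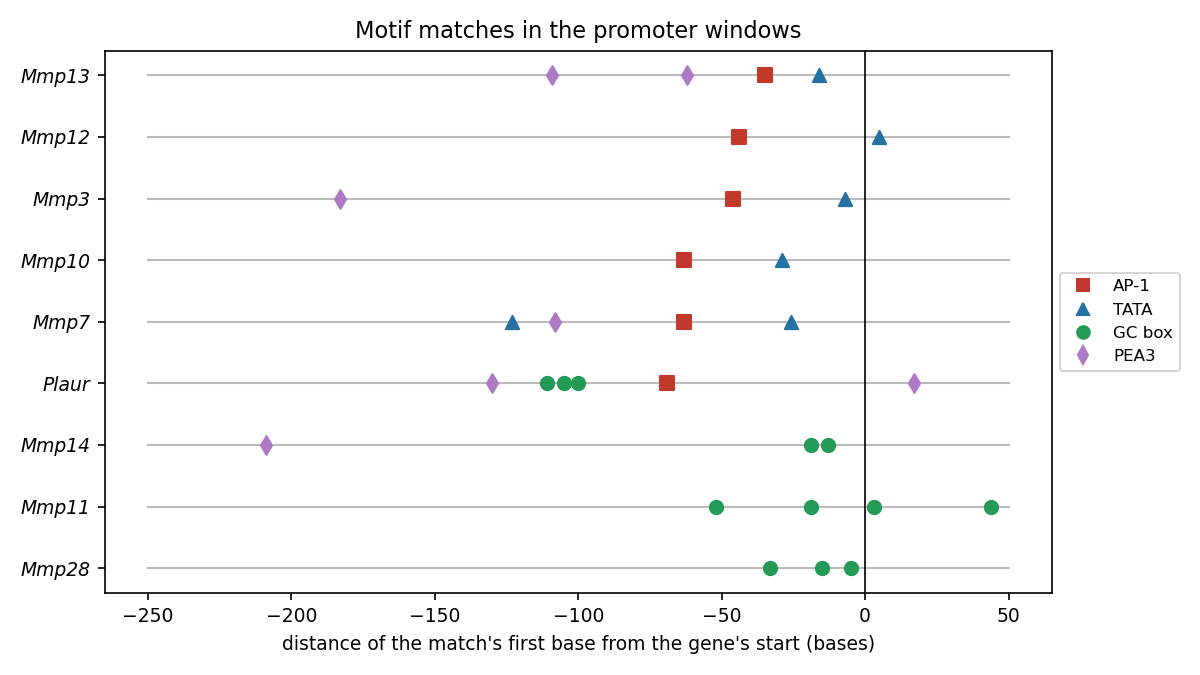
Positions of 4 motifs in the promoter windows of 9 members, as the distance in bases of each match's first base from the annotated start (vertical line). The 5 genes of the chromosome 9 cluster each show an AP-1 match between -63 and -35 and at least 1 TATA match; Mmp14, Mmp11 and Mmp28 show GC boxes only, apart from 1 PEA3 match in Mmp14.

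Over the members, 9 of 32 passed an adjusted p of 0.05 in the limma fit over all genes, 3 higher and 6 lower in AC9. Adam12, Ctsl and Plaur rose, and Mmp13, Plat, Adam10, Mmp11, Mmp28 and Mmp14 fell. In the background of all genes, 17.6% passed, 8.26% higher and 9.29% lower, so 28.1% of the members passed, with no test of that difference. The median log2 change of the 32 members was -0.0044, beside 0.0157 over all genes, but it includes 17 dim members. The groups did not overlap in 13 of the 32 members (7 higher, 6 lower). Over all genes 35.1% did not overlap, 17.3% higher and 17.7% lower. Of the 7 higher members, Mmp9, Mmp12 and Adamts9 were among the dim ones. With either VECTOR replicate 1 or AC9 replicate 1 left out, 1 member, Adam12, was higher in place of 3. The 9 members that passed changed by 1.29- to 1.69-fold.

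The 17 dim members, which have a plot of their own, read under the bound in both groups, and the size of their change is therefore not given. The bound, a log2 intensity of 6.06, is the 90th percentile of the 5222 negative control probe sets. Of the 15 members above it in at least 1 group, 14 were above it in both. The other, Mmp19, was above it in VECTOR alone and so could only read lower in AC9. Over these 15 the median log2 change was -0.23, beside -0.0053 over all genes above it in at least 1 group. The 9 members that passed were all among these 15, a share of 60%, beside 28.7% of all such genes. These differences were not tested. Log2 intensities are compared only within a gene, since probe sets differ in brightness.

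The arrays' median log2 intensities lay between 6.42 and 6.46, and 54.1% to 54.6% of genes read above the bound. Adcy9 read 6.12, 6.09 and 6.15 in VECTOR and 6.78, 6.60 and 6.82 in AC9, a 1.53-fold rise (limma adjusted p 0.00264). All 7 epithelial markers read above the bound in at least 1 group and 6 in both, with a mean log2 level of 10.07 to 10.10 in VECTOR and 10.07 to 10.16 in AC9; 2 of them rose and 1 fell. Of the markers of other cells, 6 of 7 fibroblast, 6 of 6 leukocyte and 5 of 5 endothelial genes were under the bound in both groups, and Col1a1 was above it. Their mean log2 levels in VECTOR and AC9 were 5.24 to 5.32 and 5.26 to 5.34 for fibroblasts, 4.5 to 4.70 and 4.63 to 4.76 for leukocytes, and 4.07 to 4.25 and 4.27 to 4.38 for endothelium. None of these 18 markers passed the limma threshold, while 0 fibroblast, 1 leukocyte and 1 endothelial gene had an unadjusted p under 0.05. Of 23 classes of background control probe sets, 19 were lower in AC9 without overlap, with differences between -0.50 and 0.01 and a median of -0.06. The negative controls had a median difference of 0.02. The part of this background shift in the falls described here was not tested.

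**Figure D2:**
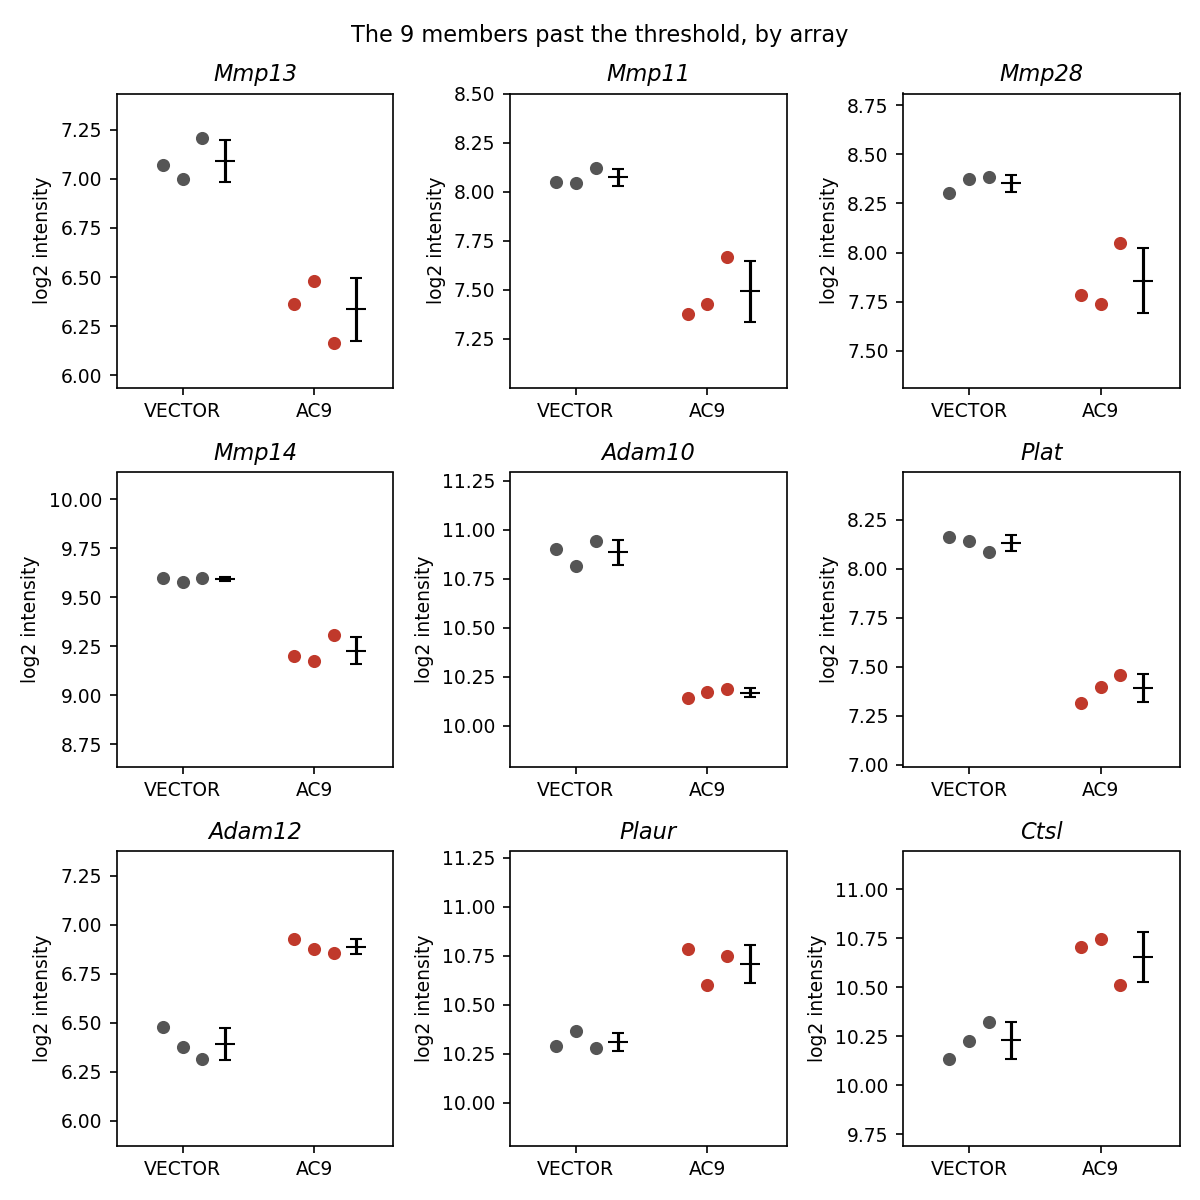
Log2 intensity on each array (points) of the 9 members past the threshold, with mean and SD of 3 arrays beside them; each panel spans 1.5 log2 units on its own scale. In every panel the 3 AC9 arrays lie wholly on one side of the 3 VECTOR arrays, below in Mmp13, Mmp11, Mmp28, Mmp14, Adam10 and Plat and above in Adam12, Plaur and Ctsl.

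Among the secreted MMPs, Mmp13, Mmp11 and Mmp28 fell and no member rose. Mmp13, collagenase 3, read 7.07, 7.0 and 7.21 in VECTOR and 6.36, 6.48 and 6.16 in AC9. All AC9 arrays were lower, and the highest of them lay well below the lowest VECTOR array. The means were 6.34 ± 0.16 in AC9 against 7.09 ± 0.11 in VECTOR (SD, n = 3), a log2 change of -0.76 (SE 0.11), or 1.69-fold lower (limma adjusted p 0.00190). It was the largest change in size among the members above the bound.

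Mmp11, stromelysin 3, which is processed by furin inside the cell, read 8.05, 8.05 and 8.12 in VECTOR and 7.38, 7.43 and 7.67 in AC9. The VECTOR arrays were close together and the AC9 arrays lower and more spread, with AC9 replicate 3 highest. The level was 7.49 ± 0.15 in AC9 against 8.07 ± 0.04 in VECTOR (SD, n = 3), 1.497-fold lower (log2 change -0.58, SE 0.10, limma adjusted p 0.00493). Mmp28, epilysin, an MMP of epithelia, read 8.30, 8.37 and 8.38 in VECTOR and 7.79, 7.74 and 8.05 in AC9. It was 1.41-fold lower (log2 change -0.50, SE 0.11, limma adjusted p 0.0115), and again AC9 replicate 3 was the highest of its group. Without AC9 replicate 1 its limma adjusted p was 0.0511.

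Mmp19, a broadly acting secreted MMP, read 5.97, 6.44 and 6.75 in VECTOR and 5.95, 5.68 and 6.07 in AC9, and the groups overlapped. The VECTOR mean of 6.39 was above the bound and the AC9 mean of 5.90 under it. VECTOR replicate 1 was the lowest of its group. Mmp19 did not pass (limma adjusted p 0.109); the log2 difference had a 95% interval of -0.91 to -0.07. With VECTOR replicate 1 left out the limma adjusted p was 0.0222, and with an intensity-trended robust prior 0.0411.

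The other collagenase, gelatinase and stromelysin members read under the bound on every array. These were the gelatinases Mmp2 and Mmp9, the stromelysins Mmp3 and Mmp10, matrilysin (Mmp7) and the macrophage elastase Mmp12. Mmp9 read 4.57, 4.96 and 4.89 in VECTOR and 5.17, 5.25 and 4.98 in AC9, without overlap, and did not pass (limma adjusted p 0.114). Mmp2 read 5.26, 5.29 and 5.20 in VECTOR and 5.30, 5.17 and 4.92 in AC9, with overlap. In the chromosome 9 cluster, whose promoters are printed above for 5 genes, the gene table lists 10 MMP genes side by side, with no other protein-coding gene between them. Of the 9 measured, 8 were under the bound in both groups with means from 3.30 to 5.12, and Mmp13, at one end of the row, was above it. The cluster members Mmp3, Mmp7, Mmp10 and Mmp12, which share the AP-1 and TATA motifs with Mmp13, had limma adjusted p-values of 0.995, 0.983, 0.205 and 0.217.

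**Figure D3:**
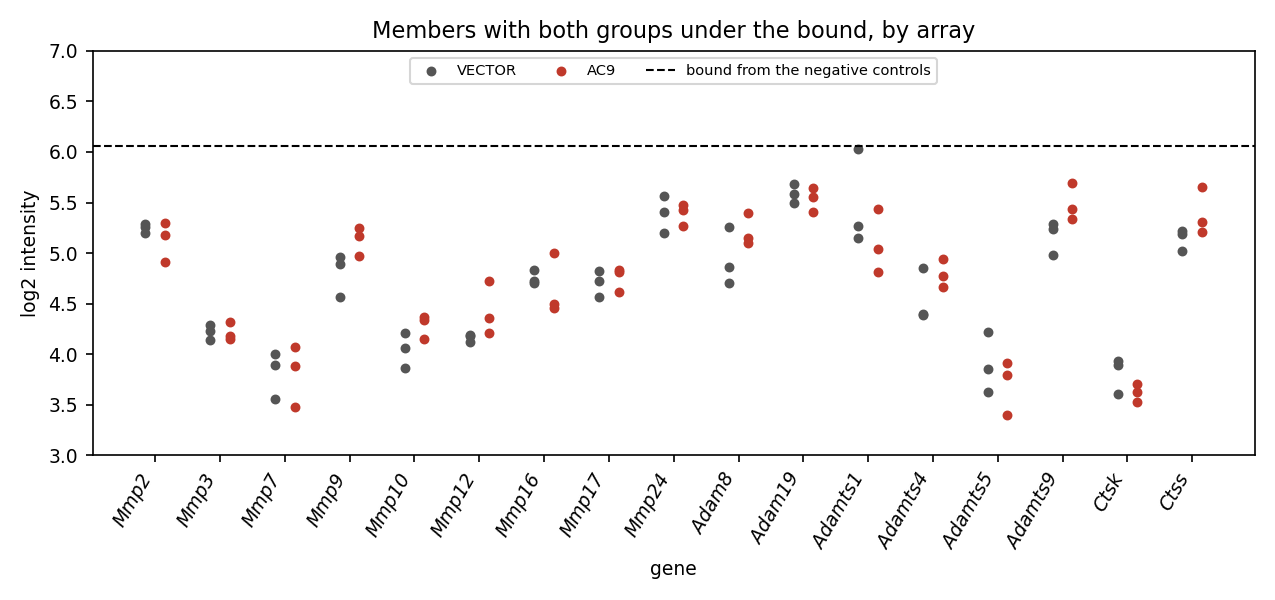
Log2 intensity on each array of the 17 members with both group means under the bound (dashed line, 6.06): grey points VECTOR, red points AC9, 3 arrays each. No point reaches the line; the nearest is VECTOR replicate 3 of Adamts1, at 6.03. Heights of different genes are not comparable.

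Of the membrane-type MMPs, Mmp14 fell. Mmp14 is a membrane-anchored collagenase that activates the precursor of Mmp2 at the cell surface. It read 9.60, 9.58 and 9.60 in VECTOR and 9.20, 9.17 and 9.31 in AC9. The VECTOR arrays lay close together, and all AC9 arrays were lower. The fall was 1.29-fold (log2 change -0.36, SE 0.09, limma adjusted p 0.0204), the smallest among the members that passed. The call was lost without VECTOR replicate 1 (limma adjusted p 0.0549), AC9 replicate 1 (0.0748) or AC9 replicate 2 (0.0732). Mmp16, Mmp17 and Mmp24, further membrane-type enzymes, were under the bound in both groups, with overlapping arrays and limma adjusted p-values of 0.673, 0.810 and 0.999. In all, 4 of the 14 measured MMP members passed, each of them lower. That is 28.6%, beside 17.6% of all genes called and 9.29% called lower. Of the 5 MMP members above the bound in at least 1 group, 80% passed, beside 28.7% of all such genes.

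The ADAM sheddases moved in both directions: Adam10 fell, Adam12 rose, and the other 5 did not pass. Adam10, which cuts Notch receptors and cadherins, read 10.90, 10.81 and 10.94 in VECTOR and 10.14, 10.17 and 10.19 in AC9. The 2 groups were tight and far apart, at 10.17 ± 0.02 in AC9 against 10.88 ± 0.06 in VECTOR (SD, n = 3). The fall was 1.64-fold (log2 change -0.72, SE 0.09, limma adjusted p 0.000722). Adam12, which releases EGF family ligands, read 6.48, 6.38 and 6.32 in VECTOR and 6.93, 6.88 and 6.86 in AC9. All AC9 arrays were higher, a rise of 1.41-fold (log2 change 0.50, SE 0.09, limma adjusted p 0.00558), from a VECTOR mean of 6.39 not far above the bound.

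Adam17, the TNF-alpha converting enzyme, read 9.23, 9.09 and 9.11 in VECTOR and 8.82, 9.09 and 8.89 in AC9. Only AC9 replicate 2 reached the VECTOR range; the log2 difference was -0.21 (95% interval -0.44 to 0.03, limma adjusted p 0.215). Adam15 read 7.74, 7.63 and 7.67 in VECTOR and 7.64, 7.34 and 7.37 in AC9, with AC9 replicate 1 inside the VECTOR range (95% interval -0.47 to 0.01, limma adjusted p 0.189). Adam9, a widely expressed sheddase, read 11.04, 11.16 and 11.23 in VECTOR and 11.44, 11.34 and 11.41 in AC9. Its groups did not overlap, AC9 being higher, with a log2 difference of 0.26 (95% interval 0.04 to 0.47, limma adjusted p 0.0962). It passed with an intensity-trended robust prior (limma adjusted p 0.00336), with genes under the 40th percentile left out (0.0392) and with genes under the bound in both groups left out (0.0330). Adam8 and Adam19 were under the bound in both groups with overlapping arrays.

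The 4 ADAMTS members Adamts1, Adamts4, Adamts5 and Adamts9, which cut aggrecan and versican, were under the bound in both groups. By limma 0 of 4 passed, and 1, Adamts9, had an unadjusted p under 0.05. Adamts9 read 4.98, 5.29 and 5.24 in VECTOR and 5.34, 5.44 and 5.70 in AC9, without overlap. Adamts1 had the largest SD of any member in either group, with arrays from 5.15 to 6.03 in VECTOR and from 4.82 to 5.44 in AC9.

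In the plasminogen activator system, Plat fell, Plaur rose and Plau did not pass. Plat, tissue plasminogen activator, read 8.16, 8.14 and 8.08 in VECTOR and 7.32, 7.39 and 7.46 in AC9. Both groups were narrow and did not overlap, at 7.39 ± 0.07 in AC9 against 8.13 ± 0.04 in VECTOR (SD, n = 3). The fall was 1.67-fold (log2 change -0.74, SE 0.09), with the smallest limma adjusted p of the members, 0.000690.

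Plaur, the urokinase receptor, whose promoter with its AP-1 motif is printed above, read 10.29, 10.37 and 10.28 in VECTOR and 10.78, 10.60 and 10.75 in AC9. Every AC9 array was higher, a rise of 1.32-fold (log2 change 0.40, SE 0.09, limma adjusted p 0.0176). The call was lost without VECTOR replicate 1 (limma adjusted p 0.0531), AC9 replicate 1 (0.0742) or AC9 replicate 3 (0.0642). Plau, urokinase, read 7.55, 7.59 and 7.79 in VECTOR and 7.58, 7.88 and 7.90 in AC9. The groups overlapped, and the log2 difference of 0.15 had a 95% interval of -0.12 to 0.41 (limma adjusted p 0.467).

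Of the cysteine cathepsins, Ctsl rose and Ctsb did not pass. Ctsl, cathepsin L, read 10.14, 10.23 and 10.32 in VECTOR and 10.70, 10.75 and 10.51 in AC9, without overlap. The rise was 1.34-fold (log2 change 0.42, SE 0.10, limma adjusted p 0.0204). The call was lost when VECTOR replicate 1 (limma adjusted p 0.0686) or 2 (0.0534) or AC9 replicate 1 (0.0764) or 2 (0.0739) was left out. Ctsb, cathepsin B, read 11.57, 11.57 and 11.40 in VECTOR and 11.57, 11.56 and 11.58 in AC9, and the log2 difference of 0.06 had a 95% interval of -0.15 to 0.27 (limma adjusted p 0.725). Ctsk, the osteoclast collagenase, and Ctss, a cathepsin of antigen-presenting cells, were under the bound in both groups. With any 1 array left out, 2174 (AC9 replicate 1) to 3025 (VECTOR replicate 3) of all genes passed, against 3424 with 6 arrays.

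**Figure D4:**
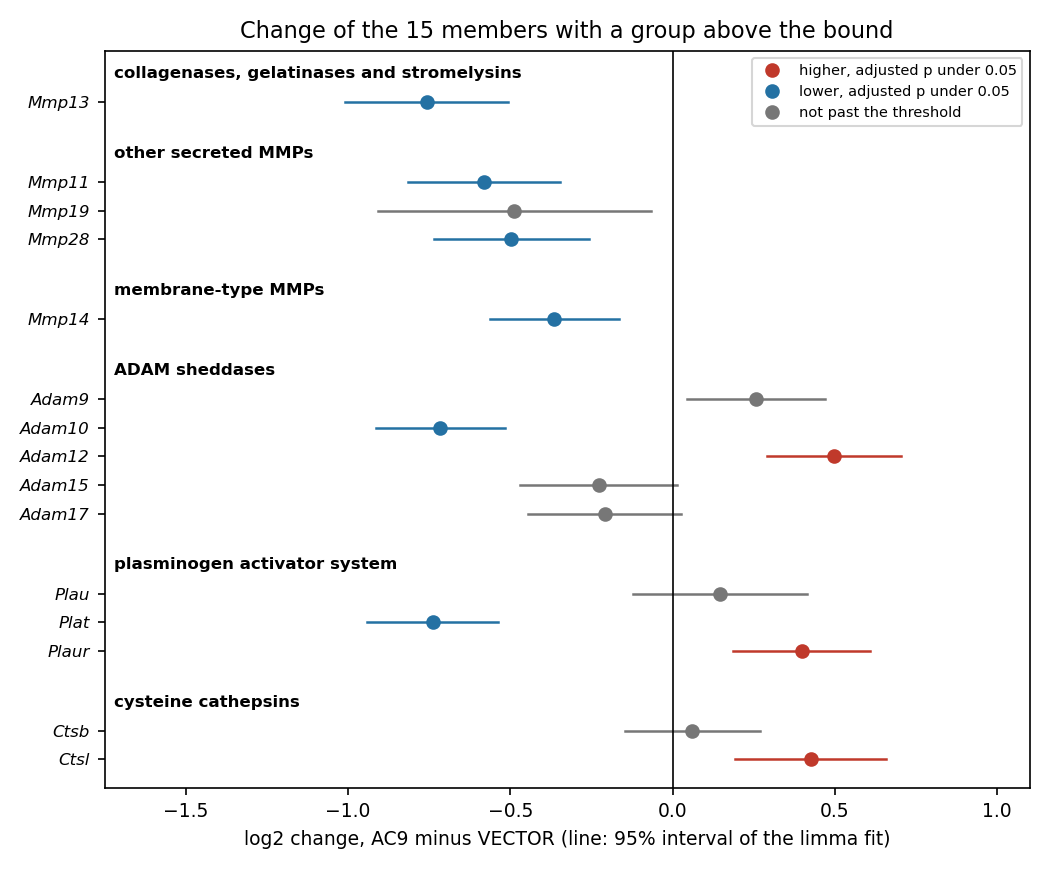
Log2 change in AC9 against VECTOR (points) with its 95% interval from the limma fit (lines) for the 15 members with a group mean above the bound, by family; blue lower, red higher, grey not past the threshold. The 5 MMPs all lie left of 0, but Mmp19, above the bound in VECTOR alone, could lie nowhere else. The ADAM members lie on both sides, and in the plasminogen group Plat lies left and Plaur right of 0.

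The inhibitors and partners of these proteases come from lists of related genes, whose named genes were taken by size of change. Each count is to be read beside the 17.6% of all genes that passed. Many listed genes were above the bound, and of all genes above it in at least 1 group 28.7% passed. Of 10 metalloprotease inhibitors, 1 rose and 2 fell (30% passed). Timp3, a matrix-bound inhibitor of MMPs, Adam10 and Adam17, read 10.36, 10.49 and 10.52 in VECTOR and 8.31, 8.17 and 8.20 in AC9. It fell 4.69-fold (log2 change -2.23, limma adjusted p 3.15e-06), a difference wider than that of any member above the bound. Timp1 rose by 0.55 on the log2 scale (limma adjusted p 0.00581). Timp2, which joins Mmp14 in activating Mmp2, changed by -0.33 (limma adjusted p 0.0364); its call was lost whichever of the 6 arrays was left out (0.0549 to 0.135) and with a replicate block (0.0698). The median log2 change of the list was 0.0037, but 7 of the 10 were under the bound in both groups. Over the other 3 it was -0.33.

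Among 13 proprotein convertases and ADAM partners, 1 rose and 4 fell (38.5% passed), with a median log2 change of -0.04. Of the 11 above the bound in at least 1 group, 45.5% passed, beside 28.7% of all such genes. The tetraspanins Tspan5, Tspan10, Tspan14, Tspan15, Tspan17 and Tspan33 bind Adam10 and guide it out of the endoplasmic reticulum. Tspan15 read 8.86, 9.03 and 9.0 in VECTOR and 8.37, 8.33 and 8.34 in AC9, a fall of 1.53-fold (log2 change -0.61, limma adjusted p 0.00193), where Adam10 itself fell by 1.64-fold. Tspan17 fell 1.36-fold (limma adjusted p 0.0207), a call lost without VECTOR replicate 2 (0.0670), AC9 replicate 1 (0.0785) or AC9 replicate 2 (0.0737). Tspan14, chosen after its values were seen, fell 1.32-fold (limma adjusted p 0.0151; 0.0567 without AC9 replicate 1). Tspan5, chosen in the same way, read 10.31, 10.32 and 10.36 in VECTOR and 10.30, 10.37 and 10.42 in AC9, with a 95% interval of the log2 difference of -0.17 to 0.23. Tspan33, also chosen so, did not pass (limma adjusted p 0.125), and Tspan10 was under the bound in both groups.

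Of the 3 partners of Adam17 in the list, 1 rose, 1 fell and 1 did not pass. Rhbdf2 (iRhom2), which carries Adam17 to the cell surface, rose 1.42-fold (limma adjusted p 0.0177), a call lost when VECTOR replicate 1 (0.0516) or 2 (0.0569) or AC9 replicate 3 (0.0541) was left out. Frmd8, which stabilises the iRhom and Adam17 complex, read 9.44, 9.57 and 9.44 in VECTOR and 8.85, 8.88 and 8.85 in AC9. Its fall was 1.54-fold (limma adjusted p 0.00167). Rhbdf1 (iRhom1), named after its values were seen, had a log2 difference of -0.14 (95% interval -0.39 to 0.11, limma adjusted p 0.463). Furin, named for its role after the values were seen, removes the inhibitory part of Mmp14, Mmp11 and the ADAMs. It read 9.08, 9.14 and 9.03 in VECTOR and 9.06, 9.05 and 9.02 in AC9 (log2 difference -0.04, 95% interval -0.24 to 0.15, limma adjusted p 0.796).

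In a list of 12 further genes drawn up around the plasminogen system, which also holds Thbd, Hgf and Met, 1 rose and 1 fell (16.7% passed). The median log2 change was 0.07, and -0.15 over the 7 above the bound in both groups. Of these 7, 28.6% passed. Thbd, thrombomodulin, a thrombin receptor, read 9.09, 9.14 and 9.42 in VECTOR and 10.19, 10.01 and 10.20 in AC9, a rise of 1.88-fold (limma adjusted p 0.000801). Plgrkt, a plasminogen receptor, fell 1.36-fold (limma adjusted p 0.0140; 0.0568 without AC9 replicate 1). Plg, plasminogen itself, was under the bound in both groups.

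Of 14 other cathepsins and cystatins, 7 fell and 1 rose, where 9.29% of all genes were lower and 8.26% higher. Of the 10 above the bound in at least 1 group, 70% passed, beside 28.7% of all such genes. The median log2 change of the 14 was -0.37. Ctsh, a cathepsin with aminopeptidase activity, read 7.78, 7.78 and 7.67 in VECTOR and 6.55, 6.70 and 6.55 in AC9, far apart and with no overlap. That is a fall of 2.21-fold (log2 change -1.14, SE 0.09, limma adjusted p 7.52e-05). Ctso fell 1.74-fold and Lgmn, the lysosomal asparaginyl protease legumain, 1.56-fold (limma adjusted p 0.00270 and 0.00180). Ctsz, Ctsa and the cathepsin inhibitor Cst3 (cystatin C), named after their values were seen, changed by -0.60, -0.52 and -0.63 on the log2 scale (limma adjusted p 0.00270, 0.01 and 0.00320). Ctsw, a cathepsin known from cytotoxic lymphocytes, rose by 0.70 (limma adjusted p 0.00370), and Ctsf, also named after its values were seen, passed as lower while under the bound in both groups. Ctsl, the member that rose, thus ran the other way from these 7, which include the inhibitor Cst3, and the same way as Ctsw.

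Among 29 other genes of the metalloprotease families, listed by name and not by activity, 23 were under the bound in both groups. The 2 that passed, Adamts6 (higher) and Adam23 (lower), were among these 23 (6.90% of the 29 passed). Adamts6 read 4.82, 4.48 and 4.40 in VECTOR and 6.03, 5.90 and 5.91 in AC9, apart by more than the spread of either group (limma adjusted p 0.000122). Adam23 read 4.29, 4.30 and 4.31 in VECTOR and 4.04, 3.85 and 3.82 in AC9 (limma adjusted p 0.0196), a call lost when VECTOR replicate 1 (0.0509) or 2 (0.0504) or AC9 replicate 2 (0.0687) or 3 (0.0760) was left out.

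AP-1, ETS and RUNX factors are known regulators of MMP and plasminogen activator genes; 4 of 12 rose and 1 fell, with a median log2 change of 0.24. All 12 read above the bound in both groups and 41.7% of them passed, beside 17.6% of all genes and 28.7% of the genes above the bound in at least 1 group. Fosb rose 1.43-fold and Fosl1 1.38-fold, while Fosl2 fell 1.6-fold (limma adjusted p 0.00629, 0.00881 and 0.000920). Jun rose 1.32-fold (limma adjusted p 0.0182), a call lost when VECTOR replicate 1 (0.0539) or 2 (0.0557) or AC9 replicate 1 (0.0615) or 3 (0.0733) was left out. Of the 7 members with an AP-1 motif in a promoter window, Plaur rose, Mmp13 fell, and the other 5 were under the bound in both groups.

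**Figure D5:**
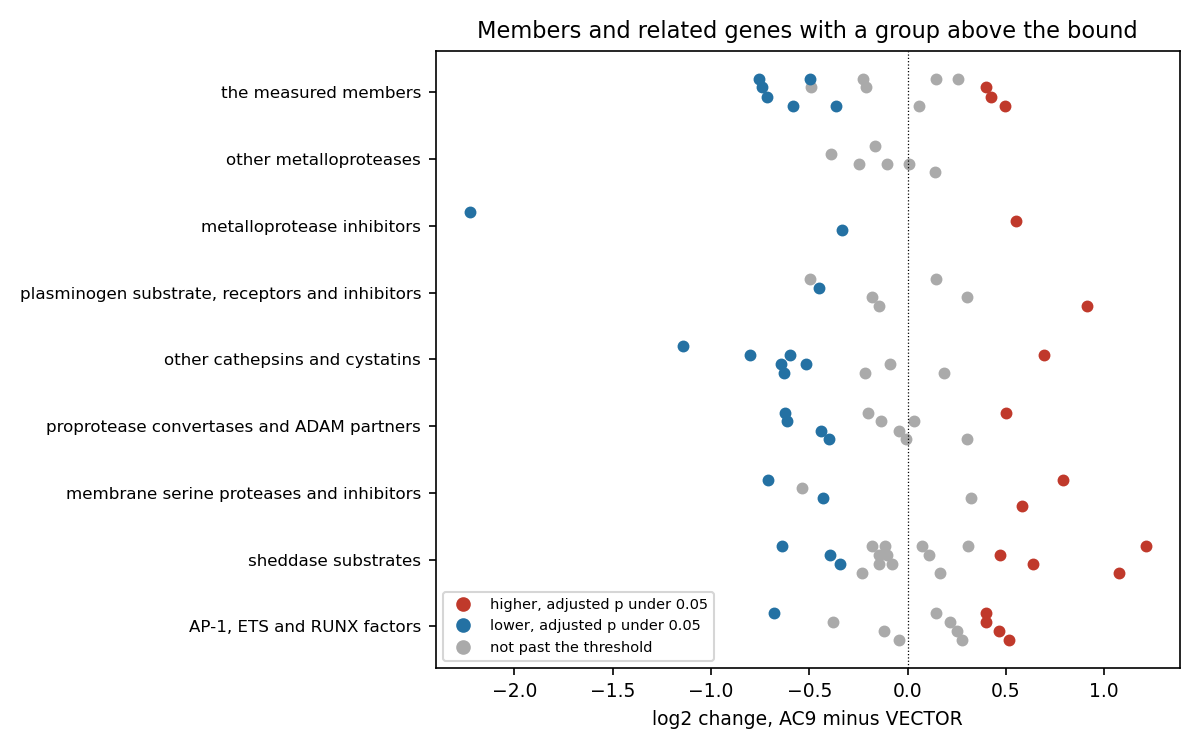
Log2 change in AC9 against VECTOR of the genes with a group mean above the bound, for the members and 8 lists of related genes (1 point per gene; red higher, blue lower, grey not past the threshold; vertical jitter only). The point farthest left is Timp3, at -2.23, and most coloured points of the other cathepsins and cystatins lie left of 0.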

How the data were processed

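RNA from 6 samples was hybridised to Affymetrix Clariom S arrays, 1 per sample, per the labels' protocols. The authors deposited 1 log2 intensity for each probe set and array, and the submitters' processing notes name RMA. Its software and the genome build were not given in the sources used here. Among 22206 probe sets that are not controls, 19572 had 1 symbol in GEO's platform annotation, 0 had several and 2634 were unnamed here; all 19572 matched a RefSeq gene (GRCm38.p6) by gene number. The probe set with the highest mean per symbol was kept. The fit of AC9 against VECTOR used lmFit and eBayes of limma 3.58.1 (R 4.3.3, two-sided, no block). P-values were adjusted by Benjamini-Hochberg over all 19505 genes, threshold 0.05. SE and 95% intervals are from that fit. It was tested on simulated data with independent noise and fewer changed genes than were called here. Such data hold no effect shared by a group's samples, so they cannot show how the fit handles one. The number of arrays limits the precision. The members and all lists were chosen with earlier results of these data known. All measured members are described; from each related list up to 4 genes past the threshold with the largest change were named. Other genes are marked as chosen after their values were seen, as were Adcy9, Tspan10, Plg and St14. Alternatives were a trended robust prior, repeated quantile normalization, median centring, a filter on dim genes, mean probe sets, array weights, a replicate block, each array left out, an adjusted p of 0.01 and a 1.5-fold size; a filter at the negative-control bound was added after seeing the data. Symbols were matched to RefSeq promoter windows, and motifs were searched by exact match.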

Additional observations from a re-analysis of the deposited data

Results flagged for a closer look

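In probe sets outside the comparison, 19 of the 23 background classes were lower in AC9 without overlap and 0 were higher. Among the 2634 probe sets with no gene name here, 275 passed a limma adjusted p of 0.05 in a fit over all probe sets that are not controls, 149 higher and 126 lower in AC9.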

How the results depend on the processing

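Of the 73 named genes, 50 were in all 14 refits, and 23 dim ones were left out by a filter on dim genes. The sign of the change differed from the reported one in at least 1 refit for 6 genes, Mmp3, Mmp7, Mmp17, Mmp24, Adam19 and Tspan5, and 0 of these passed in any fit; 0 genes that passed changed sign. Over all genes, 3424 passed; 1670 did at an adjusted p of 0.01, 1323 with a size of at least 1.5-fold, and 2174 to 3025 with 1 array left out. Of the 3 members that rose, 1 passed at 0.01 and 0 reached 1.5-fold (0 also at an unadjusted limma p under 0.05). With 1 array left out 1 to 3 members were higher, 1 without VECTOR replicate 1 or AC9 replicate 1. Of the 6 that fell, 3 reached 1.5-fold (Mmp11, at 1.497-fold, did not), and 4 to 6 passed with 1 array left out. Same-numbered arrays had correlated deviations of 0.008, 0.081 and 0.008, and not every array correlated best with its own number, so the numbers were not taken as pairs. With the replicate block 3062 genes, 3 higher and 6 lower members passed, and of the named genes Timp2 alone lost its call. With each array centred on its median, 1861 genes were higher and 1650 lower, against 1612 and 1812, and the counts of members stayed at 3 and 6. Signal near or under the bound limits what can be said of 17 members.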

Other observations

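RNA levels of genes whose proteins the sheddases release changed in both directions. Of 21 measured, 4 rose and 3 fell (33.3%, beside 17.6% of all genes), with a median log2 change of -0.08. Of the 18 above the bound in at least 1 group, 38.9% passed, beside 28.7% of all such genes. The growth factor Hbegf read 8.70, 8.94 and 9.03 in VECTOR and 10.11, 10.05 and 10.15 in AC9. Nrg1, neuregulin, read 9.54, 9.48 and 9.73 in VECTOR and 10.70, 10.60 and 10.67 in AC9. These are rises of 2.32-fold and 2.11-fold (limma adjusted p 0.000129 and 0.000157). The Notch ligand Jag1, a substrate of Adam10 and Adam17, rose 1.56-fold (limma adjusted p 0.00190). Sdc1, the shed proteoglycan syndecan, read 12.33, 12.31 and 12.21 in VECTOR and 11.56, 11.69 and 11.67 in AC9, a fall of 1.56-fold (limma adjusted p 0.00161). Cdh1, E-cadherin, which Adam10 cuts and which was named after its values were seen, had a log2 difference of -0.23 (95% interval -0.43 to -0.03, limma adjusted p 0.115); it passed with a trended robust prior (0.00105) and with dim genes left out (0.0472 under the 40th percentile, 0.0401 under the bound).

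Of 9 membrane serine proteases and their inhibitors, 2 rose and 2 fell (44.4%), with a median log2 change of 0.17. Of the 6 above the bound in at least 1 group, 66.7% passed, beside 28.7% of all such genes. Only 5 of these 6 were above it in both groups. The other was above it in VECTOR alone and so could only read lower in AC9. The median over the 6, -0.05, includes that gene and says little of direction. The proteases Tmprss11e and Prss22 rose 1.73-fold and 1.495-fold (limma adjusted p 0.000691 and 0.0200). Prss22 did not pass when VECTOR replicate 2 (0.0614) or 3 (0.0652) or AC9 replicate 3 (0.0599) was left out. The inhibitors Spint1 and Spint2, which block matriptase, fell 1.63-fold and 1.35-fold (limma adjusted p 0.00872 and 0.0145). Spint2 lost its call without AC9 replicate 1 (0.0612) or AC9 replicate 3 (0.0536). Matriptase itself, St14, was under the bound in both groups and passed as higher only without VECTOR replicate 3 (limma adjusted p 0.0309, against 0.137).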
